A study of Mus musculus with 12 samples.

Results

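Oxidative phosphorylation is carried out by 5 protein complexes of the inner mitochondrial membrane, and the nuclear genes of their subunits were followed here in mouse liver. Members were all genes whose probe sets carried a single symbol beginning with Nduf (complex I and helpers), Uqcr (complex III), Atp5 (complex V) or Cox4 to Cox8 (complex IV), plus Sdha to Sdhd (complex II), without pseudogene symbols. This gave 91 genes among 30142 on the array, of which 87 were among the 18725 genes tested. By the known place of each protein, the tested members were 34 subunits of complex I, 4 of complex II, 8 of complex III, 11 of complex IV and 16 of complex V. The remainder were 8 of 9 assembly factors, 5 of 8 isoforms typical of other tissues, and Atp5l2. That gene was grouped apart as a copy and had no match in the RefSeq gene table. Ndufaf5, Cox7b2, Cox8b and Cox8c were under the intensity filter and were not tested.

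The livers came from male C57BL/6 mice aged 12 weeks, with 4 arrays in each of 3 groups. MatOb F2 mice were grandsons, and MatOb F3 mice great-grandsons, of obese Avy/a females, which carry the viable yellow allele of agouti, while control mice had lean parents. The labels also word F2 and F3 as sons of an obese mother and do not give the generation of the controls. Nothing there states that each replicate was its own animal, and the errors and p-values below then reflect only how far these arrays scatter, including technical scatter. The comparison bears on whether obesity in a female ancestor leaves a trace in liver expression of later male generations.

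Electrons from NADH enter the respiratory chain at complex I and those from succinate at complex II, which is also an enzyme of the tricarboxylic acid cycle. Both pass them to ubiquinone, then to complex III, cytochrome c and complex IV, where oxygen is reduced. Complexes I, III and IV pump protons, and complex V uses the proton gradient to make ATP. In liver this chain pays for glucose and urea synthesis and takes up the electrons released by fatty acid oxidation. Most subunits are nuclear genes, and the transcription factors NRF1, the ETS factor GABP, YY1 and the estrogen-related receptors are known regulators of many of them.

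Promoters are shown for 4 members chosen after their values were seen, Ndufa6, Sdhd, Uqcrc1 and Uqcrh. Other members named below for their group differences, among them Sdhc, Atp5a1, Ndufa7 and Ndufb4b, are not shown. A pair of complex IV isoforms is added, Cox7a2 of most tissues and Cox7a1 of heart and skeletal muscle. Each window runs 5′ to 3′ along the gene, from 250 bases before to 50 after its start, in RefSeq coordinates of GRCm38.p6. Capitals mark matches on either strand to the NRF1 motif GCGCANGCG, the ETS motif CCGGAAG, the YY1 motif AAGATGGCG or the estrogen-related receptor motif TCAAGGTCA.
Ndufa6 (chr15:82354242-82354541, minus strand): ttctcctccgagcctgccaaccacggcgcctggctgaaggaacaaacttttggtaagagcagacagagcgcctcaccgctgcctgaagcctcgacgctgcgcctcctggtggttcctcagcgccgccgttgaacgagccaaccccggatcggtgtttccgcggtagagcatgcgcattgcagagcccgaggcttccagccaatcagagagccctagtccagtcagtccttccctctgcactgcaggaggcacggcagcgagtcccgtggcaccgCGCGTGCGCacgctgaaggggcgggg
Sdhd (chr9:50603800-50604099, minus strand): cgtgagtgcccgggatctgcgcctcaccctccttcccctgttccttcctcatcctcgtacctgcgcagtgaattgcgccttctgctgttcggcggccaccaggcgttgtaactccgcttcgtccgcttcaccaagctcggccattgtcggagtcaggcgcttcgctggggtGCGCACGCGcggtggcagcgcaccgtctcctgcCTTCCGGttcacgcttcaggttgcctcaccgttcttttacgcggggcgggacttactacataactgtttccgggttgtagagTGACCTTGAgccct
Uqcrc1 (chr9:108936398-108936697, plus strand): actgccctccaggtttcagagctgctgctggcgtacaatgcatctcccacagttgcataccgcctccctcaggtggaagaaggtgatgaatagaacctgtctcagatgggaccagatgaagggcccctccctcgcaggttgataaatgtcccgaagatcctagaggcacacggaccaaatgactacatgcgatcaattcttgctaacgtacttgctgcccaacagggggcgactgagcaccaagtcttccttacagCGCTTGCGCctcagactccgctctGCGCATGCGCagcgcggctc
Uqcrh (chr4:116075021-116075320, minus strand): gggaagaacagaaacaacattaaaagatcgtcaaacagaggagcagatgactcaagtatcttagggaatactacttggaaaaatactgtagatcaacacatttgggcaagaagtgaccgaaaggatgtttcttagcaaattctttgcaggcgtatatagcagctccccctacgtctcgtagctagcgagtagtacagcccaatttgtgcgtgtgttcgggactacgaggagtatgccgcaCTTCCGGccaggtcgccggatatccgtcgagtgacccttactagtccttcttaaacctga
Cox7a2 (chr9:79759804-79760103, minus strand): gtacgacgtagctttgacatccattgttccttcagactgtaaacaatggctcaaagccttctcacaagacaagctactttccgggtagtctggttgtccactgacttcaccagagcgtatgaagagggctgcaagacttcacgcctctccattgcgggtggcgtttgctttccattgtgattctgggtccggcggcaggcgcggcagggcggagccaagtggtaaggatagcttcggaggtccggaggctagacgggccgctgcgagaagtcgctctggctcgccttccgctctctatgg
Cox7a1 (chr7:30183921-30184220, plus strand): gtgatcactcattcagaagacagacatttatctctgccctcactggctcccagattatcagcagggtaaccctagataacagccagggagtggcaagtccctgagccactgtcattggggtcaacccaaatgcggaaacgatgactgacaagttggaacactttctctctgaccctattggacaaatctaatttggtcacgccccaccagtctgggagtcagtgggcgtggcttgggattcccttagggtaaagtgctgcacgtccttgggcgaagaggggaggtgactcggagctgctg
The Ndufa6 and Uqcrh windows held 1 match each, to the NRF1 and the ETS motif. Uqcrc1 held NRF1 matches at 2 places within 50 bases after its start, the second on both strands, and Sdhd held 1 match each to the NRF1, ETS and estrogen-related receptor motifs. No match lay in either the Cox7a2 or the Cox7a1 window. Among 74 members with a promoter in the table, the NRF1 motif occurred in 19 (25.7%), against 12.2% of 11924 tested genes and 7.03% of all 27025 genes with a promoter. The ETS motif occurred in 24.3% of these members and 16.3% of tested genes, the YY1 motif in 10.8% and 2.86%, and the estrogen-related receptor motif in 2.70% and 0.386%. Apart from that place in Uqcrc1 the marked matches did not overlap, and a match is a description of the letters in the window.

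Array medians lay between 4.49 and 4.6 on the log2 scale. All 7 hepatocyte markers with a probe set, Alb, Ttr, Apoa1, Apob, Tat, Hnf4a and Cps1, were brighter than 95% of 5222 negative control probe sets. The arrays also differed in small nucleolar RNA: divided at the widest gap over 50 such genes, a higher set held F2 replicates 1 and 4, F3 replicates 1, 2 and 3 and control replicates 2 and 4, and a lower set held the other 5 arrays. No label divides the arrays in this way.

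Of the 91 members, 65 were brighter than 95% of the negative control probe sets, a description of signal over background. These were 27 of 34 subunits of complex I, all 4 of complex II, 7 of 8 of complex III, all 11 of complex IV and 12 of 16 of complex V. None of the 8 isoforms of other tissues reached that level. The SD within groups had a median of 0.105 log2 units over the tested members, against 0.128 over all tested genes. It ran from 0.04 for Atp5j2, a membrane subunit of complex V, to 0.24 for Cox6a1, the broadly expressed form of a complex IV subunit.

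In F2 livers, subunit transcripts of all 5 complexes lay slightly below control, and none of the differences passed the test. The median log2 difference of F2 from control was −0.06 for complex I, −0.10 for complex II, −0.07 for complex III, −0.06 for complex IV and −0.06 for complex V, against −0.01 over all genes tested. These medians correspond to 93.4% to 96.1% of the control level. Differences were below 0 for 31 of 34, 4 of 4, 8 of 8, 10 of 11 and 13 of 16 subunits of complexes I to V, and for 78 of 87 members in all, beside 56.7% of all genes tested. In bulk liver, fewer cells of a type and less RNA per cell cannot be told apart. Without F2 replicate 2 the 5 medians were −0.01, −0.04, −0.02, −0.01 and −0.03, and 58 of 87 members were below 0. Without F2 replicate 3 they were −0.10, −0.13, −0.12, −0.10 and −0.09, and 83 of 87 members were below 0. Without control replicate 1 the medians of complexes I, IV and V were −0.03, −0.01 and −0.04, and without control replicate 3 that of complex III was −0.12. Without F2 replicate 4 that of complex IV was −0.04. Without both F2 replicate 2 and control replicate 2 the count was 52 of 87, beside 58.1% of all genes tested. The share of all genes below 0 was 58.9% without F2 replicate 2 alone and 56.0% without F2 replicate 3.

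In F3 livers the medians of complexes II and III lay below control, and those of complexes I, IV and V lay close to 0. Complex II had a median log2 difference of −0.11, with 3 of 4 subunits below 0, and complex III one of −0.04, with 6 of 8 below 0. Complexes I, IV and V were at −0.01, 0.01 and −0.01, beside −0.01 over all genes tested, with 18 of 34, 5 of 11 and 10 of 16 subunits below 0. In all, 50 of 87 members were below 0, beside 54.7% of genes. After quantile normalization the medians of complexes I to V were −0.03, −0.18, −0.08, −0.05 and −0.04. All 5 were also below 0 without control replicate 2 (−0.02, −0.07, −0.07, −0.05 and −0.02), without control replicate 3 (−0.03, −0.14, −0.05, −0.02 and −0.03) and without F3 replicate 4 (−0.02, −0.08, −0.07, −0.01 and −0.06). Without control replicate 1 they were 0.02, −0.12, −0.02, 0.01 and 0.01. Leaving out F3 replicate 1 gave a complex I median of 0.02, and leaving out F3 replicate 3 gave 0.00 for complex I and 0.01 for complex V. The directions of complexes I, IV and V thus depended on single arrays, and that of complex IV also on the scaling, while complexes II and III were below 0 with each array left out in turn.

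Set directly against F2, F3 livers had higher values for most members. The median log2 difference of F3 from F2 was 0.06 for complex I, −0.01 for complex II, and between 0.02 and 0.03 for complexes III, IV and V, beside 0.00 over all genes. Only 25 of 87 members were below 0, beside 48.6% of genes, and 28 of 34 complex I subunits were above it. These values rested on single arrays. Without F2 replicate 2 the medians of complexes I to V were 0.01, −0.06, −0.02, 0.00 and −0.01, with 44 of 87 members below 0. Without F3 replicate 4 they were 0.03, 0.02, 0.01, 0.00 and 0.00, with 39 of 87 below 0. Without F2 replicate 3 they were 0.09, 0.00, 0.04, 0.06 and 0.07, with 18 of 87 below 0. The shares of all genes below 0 without these arrays were 42.4%, 49.7% and 49.1%, in the same order. After quantile normalization the medians of complexes I to V were 0.03, −0.08, −0.02, 0.00 and 0.00. This comparison shares the F2 arrays with the one against control, and both comparisons with control share the control arrays, so the 3 sets of values are not independent.

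**Figure D1:**
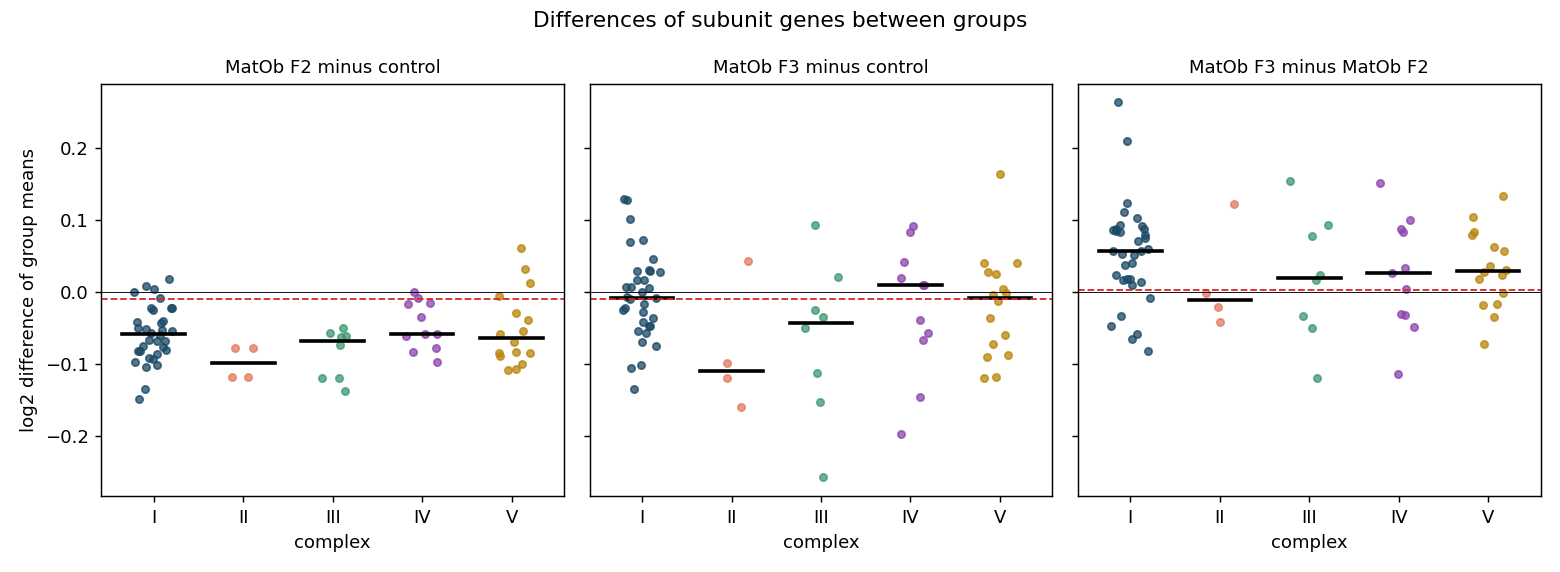
Log2 differences of group means for the 73 subunit genes of complexes I to V (vertical axis), with 1 panel per comparison; points are genes, black bars the median of each complex and the dashed red line the median of all 18725 genes tested. In F2 minus control nearly all points lie below 0, with medians between −0.06 and −0.10, whereas in F3 minus control the median of complex II is −0.11 and those of complexes I, IV and V are near 0.

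Per array, the score of a complex was taken as follows: each subunit's log2 value was centred on its own 12-array mean, and the median over the subunits was used. The complex I score was 0.00, −0.14, 0.05 and −0.05 in F2 replicates 1 to 4, −0.02, 0.03, −0.02 and 0.10 in F3 replicates, and 0.10, 0.01, −0.02 and 0.00 in control replicates. The groups overlapped, with F2 replicate 2 lowest and F3 replicate 4 highest. The complex II score was 0.06, −0.21, 0.04 and 0.01 in F2, 0.03, −0.03, −0.05 and −0.03 in F3, and 0.10, 0.16, 0.00 and 0.11 in control. F3 replicate 4, the highest array for complex I, was thus below its gene means for complex II, and 3 of 4 control arrays lay above every F2 and F3 array. Complex III was highest in control replicate 1 at 0.12, with F2 between −0.18 and 0.04, F3 between −0.04 and 0.03, and control between −0.03 and 0.12. For complex IV the F2 scores ran from −0.12 to 0.09, the F3 scores from −0.05 to 0.10 and the control scores from −0.01 to 0.11. For complex V they ran from −0.12 to 0.05 in F2, −0.03 to 0.09 in F3 and −0.01 to 0.09 in control. F2 replicate 2 had the lowest score of all 12 arrays for each of the 5 complexes.

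**Figure D2:**
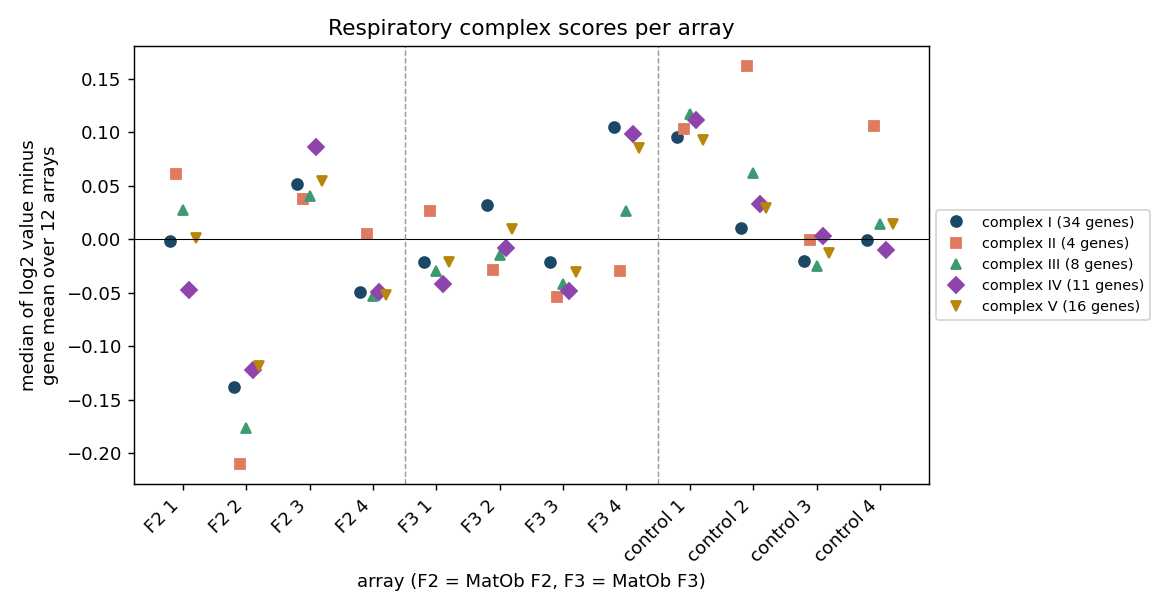
Score of each complex in each array (vertical axis, log2 units relative to the mean of each gene over the 12 arrays), with F2, F3 and control arrays from left to right; each symbol is a complex. F2 replicate 2 lies lowest for all 5 complexes (−0.12 to −0.21), and in F3 replicate 4 complexes I, IV and V lie between 0.09 and 0.10 while complex II lies at −0.03.

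A count of single genes gave the same arrays. F2 replicate 2 was the lowest of the 12 arrays for 46 of 87 members (52.9%), against 8.79% of all genes tested. This held for 19 of 34 subunits of complex I, 3 of 4 of complex II, 7 of 8 of complex III, 5 of 11 of complex IV and 8 of 16 of complex V. The highest value lay in control replicate 1 for 23 members (26.4%, against 5.78% of all genes tested). It lay in F3 replicate 4 for 22 (25.3%, against 10.8%) and in control replicate 2 for 17 (19.5%, against 14.5%). These 3 arrays, picked as those most often highest, together held 62 of 87. Of all genes tested, 10.2% had their highest value in F2 replicate 2. So did 8 of 8 Kupffer cell markers and both lymphocyte markers tested. Of these, 6 Kupffer markers (Clec4f, Cd5l, Vsig4, Timd4, Csf1r and C1qa) and 0 lymphocyte markers were brighter than 95% of the negative control probe sets. The median Kupffer marker score was 0.46 in that array, with ranges of −0.18 to 0.46 in F2, −0.37 to 0.26 in F3 and −0.15 to 0.17 in control. Its hepatocyte marker score was −0.05, within the range of −0.09 to 0.07 over all arrays. The part of other cells in the low subunit values of this array was not tested.

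**Figure D3:**
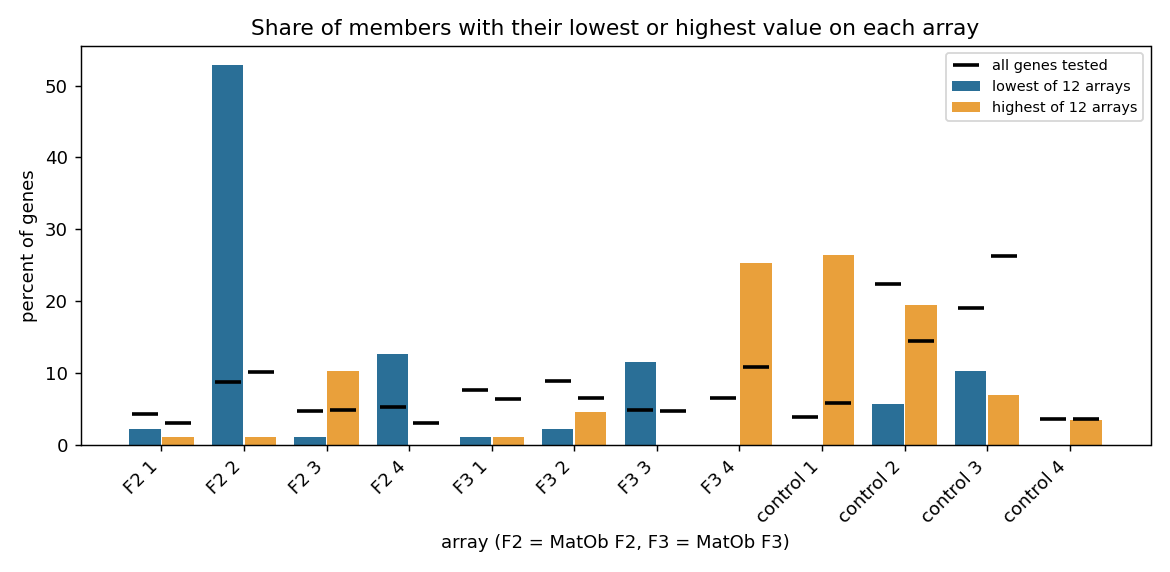
Percent of the 87 tested members that had their lowest (blue) or highest (orange) value of the 12 arrays on each array, with black ticks for all 18725 genes tested. F2 replicate 2 was lowest for 52.9% of members against 8.79% of all genes. Control replicate 1 and F3 replicate 4 were highest for 26.4% and 25.3%, against 5.78% and 10.8% of all genes.

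The array sets were also compared directly. The median difference of the higher from the lower set was −0.01 for complex I, 0.05 for II, −0.03 for III, −0.08 for IV and −0.03 for V, beside −0.03 over all genes. Cox6a1 was lowest in the higher set at −0.40, followed by the c-ring gene Atp5g2 at −0.30, the complex I subunit Ndufa8 at −0.30 and Uqcrc1 at −0.29. Ndufs1, a catalytic core subunit of complex I, was 0.27 higher there. Within the higher set the F2 medians relative to control were −0.04, −0.09, −0.03, −0.04 and −0.05 for complexes I to V, and within the lower set −0.08, −0.13, −0.12, −0.07 and −0.07. F2 and control arrays divide equally between the sets, so a block for the set cannot change the F2 medians. The F3 medians relative to control were −0.02, −0.14, −0.04, −0.02 and −0.03 within the higher set. Within the lower set, which has a single F3 array, they were 0.06, −0.08, −0.01, 0.02 and 0.04. With the set as a block they were 0.00, −0.14, −0.04, 0.02 and −0.01.

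No gene passed the test in any comparison. Limma called 0 of 18725 genes in F2 against control (0.0%, smallest adjusted p = 0.9999), 0 in F3 against control (smallest adjusted p = 0.9998) and 0 in F3 against F2 (smallest adjusted p = 0.9999). At an unadjusted p under 0.05, 0 members stood in F2 against control, where 0.342% of genes were higher and 0.577% lower (0.919% in all). In F3 against control 5 members did, Sdhc, Uqcrc1, Atp5a1, Uqcrh and Ndufa7, all lower, where 1.64% of genes were higher and 1.28% lower (2.93% in all). That count was 0 without F3 replicate 2 or F3 replicate 3, 1 without control replicate 1, 2 without control replicate 2, F2 replicate 4 or F3 replicate 1, and 3 without F2 replicate 1. In F3 against F2 3 members did, Cox7a1, Ndufa6 and Ndufb4b, all higher, beside 1.59% of genes higher and 0.774% lower (2.37% in all). The groups did not overlap for 1 member in F2 against control, Atp5a1, which was lower, where 0.304% of genes were higher and 0.401% lower without overlap (0.705% in all). In F3 against control this was so for 3 members, Sdhd, Uqcrh and Atp5a1, all lower, beside 0.726% of genes higher and 0.903% lower (1.63% in all). In F3 against F2 it was so for 2 members, Ndufa6 and Cox7a1, both higher, beside 1.62% of genes higher and 0.838% lower (2.46% in all). All adjusted p-values of members were 0.9998 or more by limma, and each SE below is from that fit. The 95% intervals lay within 1.5-fold in either direction for all 87 members in each of the 3 comparisons.

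Atp5a1 encodes the alpha subunit of the catalytic head of complex V. Its log2 values were 10.67, 10.55, 10.67 and 10.62 in F2, 10.67, 10.60, 10.62 and 10.55 in F3, and 10.74, 10.74, 10.70 and 10.74 in control. Every F2 and F3 array lay below every control array. The difference was −0.10 in F2 and −0.12 in F3 (SE 0.051 for both), and −0.20 in F3 after quantile normalization. Atp5b, the beta subunit of the head, differed by −0.07 in F2 and −0.09 in F3, and by −0.03 and −0.05 without control replicate 2. The remaining parts of complex V were mixed in F3: the peripheral stalk had a median difference of 0.01, the central stalk −0.07, the c ring −0.06 and the membrane subunits 0.03.

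Within complex II the more negative differences were those of the membrane anchor. Sdhc and Sdhd hold the enzyme in the membrane and form the ubiquinone site. Sdhc measured 8.68, 8.64, 8.81 and 8.78 in F2, 8.62, 8.60, 8.69 and 8.83 in F3, and 8.88, 8.89, 8.78 and 8.83 in control. The highest F3 array reached the control range and the other 3 lay below it, a difference of −0.16 in F3 (SE 0.066) and −0.12 in F2 (SE 0.066). In the lower array set alone the F3 value of Sdhc was 0.00. Sdhd measured 9.42, 9.17, 9.36 and 9.35 in F2, 9.35, 9.31, 9.31 and 9.33 in F3, and 9.49, 9.55, 9.36 and 9.39 in control. All 4 F3 arrays lay within a narrow band just below the lowest control array, and the difference was −0.12 in both F3 (SE 0.066) and F2 (SE 0.066). Without F2 replicate 2 the F2 value of Sdhd was −0.07, and after quantile normalization its F3 value was −0.20. The flavoprotein Sdha differed by −0.10 in F3, or −0.04 without F3 replicate 4, and by −0.08 in F2, or −0.01 without F2 replicate 2. The iron-sulfur subunit Sdhb was 8.86 to 9.10 in F3, 8.62 to 9.01 in F2 and 8.73 to 9.05 in control, with differences of 0.04 in F3 and −0.08 in F2, the second being 0.00 without F2 replicate 2.

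In complex III, Uqcrc1 and Uqcrh had the most negative F3 differences from control. Uqcrc1, a core subunit, measured 9.82, 9.92, 10.19 and 9.91 in F2, 9.80, 9.74, 9.69 and 10.12 in F3, and 10.27, 10.01, 10.16 and 9.94 in control. F3 replicates 1 to 3 lay below all control arrays and F3 replicate 4 among them, a difference of −0.26 (SE 0.11), the most negative of any tested member in the 3 comparisons. Its lower-set arrays included the 3 highest F2 and F3 values, and with the set as a block the F3 difference was −0.19 (SE 0.072). Uqcrh, the hinge protein near cytochrome c1, measured 8.69, 8.49, 8.68 and 8.60 in F2, 8.63, 8.52, 8.54 and 8.63 in F3, and 8.88, 8.65, 8.71 and 8.69 in control. All F3 arrays were below all control arrays, and the difference was −0.15 in F3 (SE 0.068) and −0.12 in F2. Without control replicate 1 these values of Uqcrh were −0.10 in F3 and −0.07 in F2. Uqcr11 differed from control by −0.12 in F2 and −0.03 in F3. Uqcrb, the ubiquinone-binding protein, was 9.83 to 10.11 in F3 and 9.69 to 10.02 in F2, a difference of 0.15 of F3 from F2, and of 0.10 without F2 replicate 2.

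Complex I held 2 of the 3 members with an unadjusted p under 0.05 in F3 against F2. Ndufa6, an accessory subunit of the LYR family, measured 8.36, 8.41, 8.42 and 8.53 in F3, against 8.27, 8.12, 8.31 and 8.18 in F2, with control arrays at 8.49, 8.26, 8.18 and 8.29. F3 and F2 did not overlap, while control replicate 1 lay within the F3 range and the other 3 control arrays within the F2 range. The difference of F3 from F2 was 0.21 (SE 0.074). Ndufb4b, a near copy of the accessory subunit Ndufb4 whose probe set may read both, measured 10.02, 10.08, 10.02 and 10.51 in F3, 9.85, 9.77, 10.08 and 9.87 in F2, and 9.93 to 10.23 in control. The difference of F3 from F2 was 0.26 (SE 0.11), and 0.15 without F3 replicate 4. Ndufa7 had values of 6.65, 6.70, 6.60 and 6.76 in F3, 6.71, 6.65, 6.82 and 6.76 in F2, and 6.88, 6.87, 6.76 and 6.75 in control. Its F3 difference from control was −0.14 (SE 0.061), with 1 F3 array reaching into the control range. Ndufc1 and Ndufc2, which lie in the membrane arm, differed by 0.12 and 0.09 between F3 and F2, and Ndufc2 by 0.03 without F2 replicate 2. The 6 core subunits, among them those that carry the flavin and iron-sulfur centres, all had F2 values below control, with a median difference of −0.07. In F3 5 of the 6 were below control, with a median of −0.03.

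**Figure D4:**
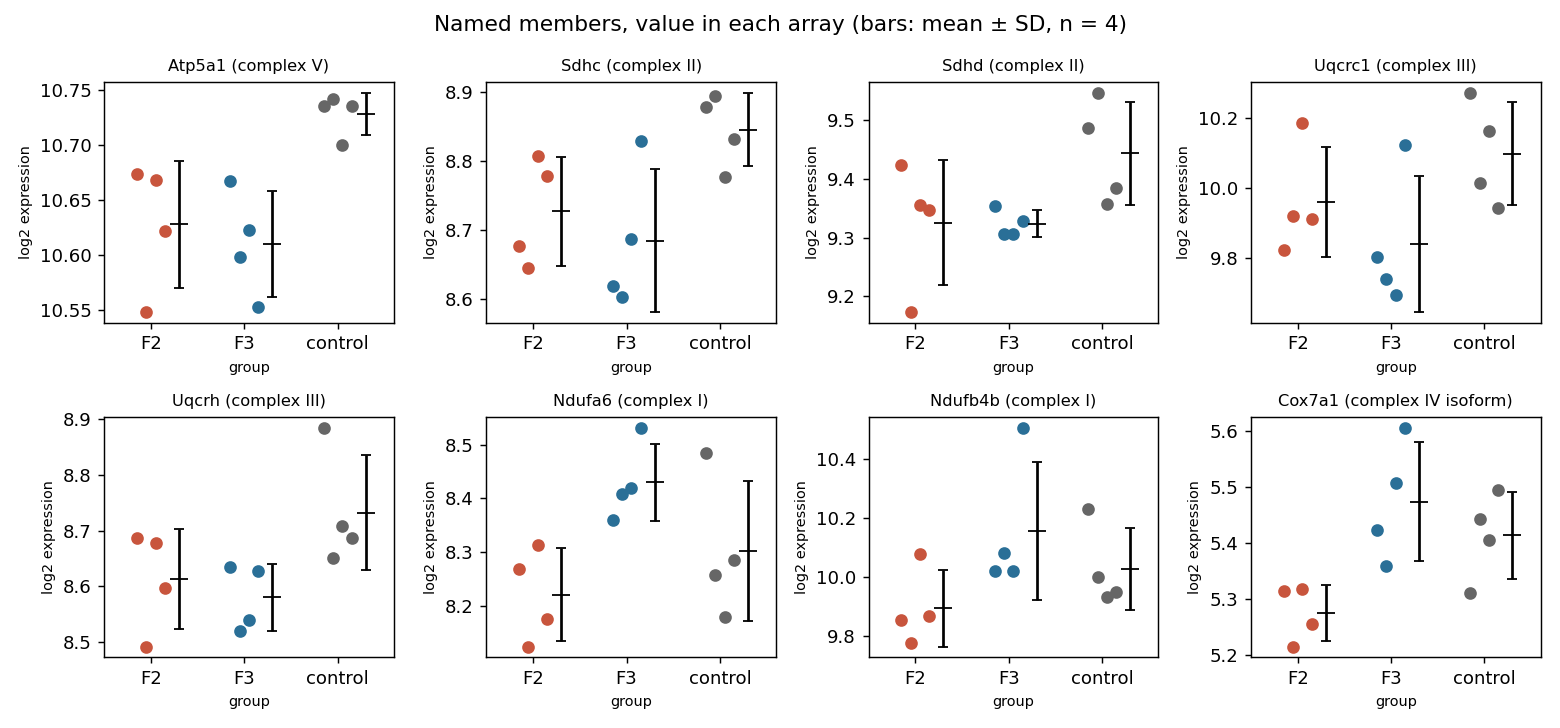
Log2 expression (vertical axes, each with its own range) of 8 members in every array of the F2, F3 and control groups from left to right, with the mean and SD of 4 arrays beside the points. All F2 and F3 points of Atp5a1 lie below the control points, the F3 points of Sdhd and Uqcrh lie below control, and those of Ndufa6 and Cox7a1 lie above F2.

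None of the 11 subunits filed under complex IV had an unadjusted p under 0.05, while the isoform Cox7a1, counted apart, did in F3 against F2. Cox4i1, the regulatory subunit of most tissues, measured 7.37 to 7.62 in F3, 7.47, 7.49, 7.64 and 7.54 in F2, and 7.71, 7.61, 7.67 and 7.53 in control, a difference of −0.15 in F3 (SE 0.068) and −0.10 in F2. F3 and control overlapped through control replicate 4 and F3 replicate 4. Ndufa4, now counted as a complex IV subunit, was 10.29 to 10.51 in F3, 10.07 to 10.32 in F2 and 10.19 to 10.32 in control, with a difference of 0.15 of F3 from F2 and of 0.10 without F3 replicate 4. Cox8a, the form of subunit VIII found in liver, had the most negative F3 difference of the complex at −0.20. Cox6a1 had the largest spread, from 11.00 to 11.51 in F2, 11.02 to 11.65 in F3 and 11.05 to 11.43 in control, and its differences from control were −0.01 in F2 and −0.04 in F3. Its high arrays were those of the lower small nucleolar RNA set in every group.

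Isoforms known from other tissues were dim in these livers. Cox4i1, Cox6a1, Cox6b1, Cox7a2, Cox8a and Ndufa4 were brighter than 96.7% to 99.6% of the negative control probe sets. The alternatives Cox4i2, Cox6a2, Cox6b2, Cox7a1 and Ndufa4l2, typical of lung, muscle, testis or hypoxic cells, were brighter than 73.9% to 83.9%, and the muscle form Cox8b than 51.5%. Cox7a1, the muscle form, measured 5.42, 5.36, 5.51 and 5.61 in F3, 5.31, 5.21, 5.32 and 5.25 in F2, and 5.31, 5.44, 5.41 and 5.49 in control. F3 lay above F2 in all arrays, a difference of 0.20 (SE 0.066), and the F2 difference from control was −0.14. Its level was brighter than 75.6% of the negative control probe sets, and so lay among them. In the liver form Cox7a2 the difference of F3 from F2 was 0.03. Cox6b2, the testis form, differed from control by −0.19 in F2 and −0.15 in F3, with control replicate 3 highest at 6.17. Without that array the Cox6b2 differences were −0.09 and −0.06. The isoforms Cox4i2, Cox6a2 and Ndufa4l2 differed by −0.09 to 0.04. Control replicate 3 had the highest score of the isoforms, 0.25, and the highest value for 4 of 4 skeletal muscle markers tested. It was also the highest array for 26.3% of all genes tested, the largest share of any array. Its adipocyte and cholangiocyte marker scores, 0.20 and 0.19, were the highest as well, while the remaining marker lists had their highest scores in other arrays. None of the 5 muscle markers was above 95% of negative controls, nor was any adipocyte or cholangiocyte marker. The part of other cells in the isoform values was not tested.

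The 3 genes of the c ring, whose mature proteins are the same, were all below control in F2: Atp5g1 differed by −0.11, Atp5g2 by −0.08 and Atp5g3 by −0.06. Atp5g2 was at −0.01 without control replicate 1 and Atp5g3 at 0.03 without F2 replicate 2. In F3 the values were −0.07, −0.06 and 0.00. Atp5g1 ran from 8.65 to 8.88 in F2, 8.73 to 8.94 in F3 and 8.71 to 8.99 in control, and Atp5g2 from 10.33 to 10.69, 10.38 to 10.78 and 10.36 to 10.77 in the same groups. Atp5g2 was also read by a probe set annotated on chromosome 7, although RefSeq places the gene on chromosome 15, and that probe set gave −0.07 in both F2 and F3. For Atp5l, a membrane subunit, the brightest probe set lay on chromosome 5 and not at the RefSeq gene on chromosome 9. It gave 0.03 in F2 and 0.16 in F3 (0.07 without control replicate 3), while the dimmer ones gave −0.22 and −0.01 in F2 and −0.10 and 0.01 in F3, so the direction of Atp5l was uncertain. The probe sets of Atp5d, a central stalk subunit, differed as well: the bright one gave −0.08 in F2 and −0.12 in F3, the dim one 0.01 in both.

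The assembly factors among the members had median differences from control of −0.02 in F2, with 7 of 8 below 0, and 0.00 in F3, with 4 of 8 below 0. Ndufaf4, which acts in the building of complex I, had one of the widest spreads, with an SD of 0.23 in F2 and 0.28 in control, from 6.62 in control replicate 3 to 7.29 in F2 replicate 1. Ndufa4l2 was at 5.27 to 5.45 in F2, 5.01 to 5.44 in F3 and 4.96 to 5.53 in control.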

How the data were processed

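The deposited table held log2 expression values per probe set, made by the authors. Per the submitters' processing notes, the program was Affymetrix Expression Console. For its version, its normalization and the genome build, nothing is given in the sources used here. RNA was extracted with Trizol and 100 ng per sample was labelled with the WT Plus kit, per the labels' protocols. Precision was limited by the 12 arrays, 4 per group. Of 72688 probe sets, 30604 had 1 gene symbol in the platform annotation, 2146 had several and 39938 were unnamed here. The probe set with the highest mean stood for each of 30142 genes, and 18725 genes with a mean above 4.55, the median of all probe sets, were tested. By gene identifier, 89 of the 91 members matched the RefSeq gene table of GRCm38.p6.

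Limma 3.58.1 (lmFit and eBayes under R 4.3.3) was run on the 3 groups in a single model without covariates, and p-values were adjusted by Benjamini-Hochberg over all genes tested (threshold 0.05). The procedure was tested on simulated data with independent noise and changes far larger than the member differences above. That test does not cover differences as small as theirs. Members, complexes, other gene lists and the array sets were chosen with earlier results of these data known. The genes named were, per comparison, the member of each complex with the lowest p, the 6 lowest p over all members, the largest spreads within a group, members whose probe sets disagreed in sign, and pairs of isoforms. Any other gene named was chosen after its values were seen. The NRF1 motif searched was shortened by 1 letter after its counts in a longer form had been seen, which were lower in members and in all genes alike. Replicate numbers were checked as pairs: deviations from group means of arrays with the same number correlated across genes with r between −0.51 and 0.32, so the numbers were not used to pair samples. Alternatives were quantile normalization, array centring, other filters, the mean over probe sets, eBayes with trend and robust, 2 groups only, the replicate number or array set as a block, each array set alone, assignment by symbol prefix, and leaving out arrays.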

Additional observations from a re-analysis of the deposited data

Results flagged for a closer look

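Dixon's criterion at 95% was applied to 78 groups of 4 arrays, formed by the scores of the 5 complexes and by named members. In 7 cases 1 array stood far from the other 3. For a single group chosen beforehand chance gives about 1 in 20. That rate does not apply here, because some members were picked for their spread and all were read on the same arrays. In 5 of the 7 cases that array was F3 replicate 4. There Cox6a1 was at 11.646 (other F3 arrays 11.022 to 11.076), Ndufb4b at 10.505 (10.019 to 10.082), Ndufa4 at 10.511 (10.287 to 10.313) and Atp5j2 at 6.283 (6.193 to 6.208). Uqcrb was at 9.828 in that array, below the 10.061 to 10.105 of the other F3 arrays. F3 replicate 4 is the one F3 array of the lower small nucleolar RNA set. Ndufa4l2 was at 5.448 in F2 replicate 2, above the 5.272 to 5.294 of the other F2 arrays. Atp5a1 was at 10.7 in control replicate 3, below the 10.736 to 10.742 of the other control arrays.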

How the results depend on the processing

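No gene passed the test in any of the 3 comparisons, and this held under every alternative but the lower array set alone, which has 2 residual degrees of freedom and a single F3 array. There 2 genes were called in F3 against control and 3 in F3 against F2, none of them a member. In that set the complex I median was 0.0577 in F3 against control, the complex I and II medians were 0.126 and 0.0743 in F3 against F2, and Sdhc in F3 against control turned to 0.0028. The count of members below 0 in F3 against F2, 25 of 87, was 40 in the higher set, 9 in the lower set and 44 without control replicate 2 and F2 replicate 2. Of all genes tested, 43.2%, 50.5% and 42.4% were below 0 in these settings. Leaving out each array in turn gave counts of 18 to 44 members. Of 525 alternatives for single genes, run only for the members with the lowest p in each comparison, 1 changed direction. Some of these alternatives, the replicate block among them, could not change a difference. Members with smaller differences did change direction when 1 array was left out. In F2 against control, Atp5g3 went from −0.06 to 0.03 without F2 replicate 2, and Uqcrc2 from −0.06 to 0.02 without control replicate 2. Each replicate number occurs in every group, so a block for it cannot move the medians. With the replicate block 0 genes were called in each comparison. Members at an unadjusted p under 0.05 then numbered 0, 2 and 2 in F2 against control, F3 against control and F3 against F2, against 0, 5 and 3 without it. The 5 in F3 against control were 0 after centring, 8 after quantile normalization, 4 with a block for the array set, 0 without F3 replicate 2 or F3 replicate 3, 1 without control replicate 1 and 7 without F3 replicate 4. The 3 in F3 against F2 were 1 after centring, 2 after quantile normalization and 6 with a block for the array set. Same-numbered arrays matched best in 1 of 24 cases. Genes at an unadjusted p under 0.05 in F3 against control were 308 higher and 240 lower, 223 and 349 after quantile normalization, and 201 and 165 after centring. In F3 against F2 they were 298 and 145, 158 and 257, and 129 and 136, and in F2 against control 64 and 108, 77 and 79, and 63 and 49. Without a filter the counts in F2 against control were 131 and 353. Members near the negative controls, among them the isoforms of other tissues, are limited by signal over background.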

Other observations

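Other mitochondrial gene lists were counted in the same fit. The enzymes of the tricarboxylic acid cycle, which feed electrons to complexes I and II, lay below control for 11 of 12 genes in F2 (median log2 difference −0.07) and for 9 of 12 in F3 (median −0.08). Mdh2, mitochondrial malate dehydrogenase, was the only one with an unadjusted p under 0.05, at −0.24 in F3 (SE 0.092, adjusted p = 0.9998 by limma), and −0.15 in F2. F2 replicate 2 had the lowest value for 6 of the 12 genes, beside 8.79% of all genes tested. Control replicate 2 had the highest for 9 of the 12, beside 14.5%. The cycle's score was −0.20 in F2 replicate 2, against 0.19 in control replicate 2.

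By group means, subunits encoded by mitochondrial DNA did not share the direction of the nuclear ones in F2. Of 5 genes, 1 lay below control in F2 (median 0.05) and 2 in F3 (median 0.08). Their scores overlapped, from −0.10 to 0.05 in F2, −0.13 to 0.11 in F3 and −0.14 to 0.07 in control. The lowest array was control replicate 3, and within F2 it was replicate 2, as for the nuclear subunits. Their medians without single arrays were not computed, so the direction may rest on 1 array. Mitochondrial ribosomal proteins lay below control for 50 of 75 genes in F2 (median −0.01) and for 35 of 75 in F3 (median 0.01). At an unadjusted p under 0.05 stood 1 of 75 in F2 and 2 of 75 in F3, beside 0.919% and 2.93% of all genes tested, shares near that background. Among further assembly factors, 21 of 31 lay below control in F2 and 16 of 31 in F3. At an unadjusted p under 0.05 stood 1 of 31 in F3 against control and 1 of 31 in F3 against F2, beside 2.93% and 2.37% of all genes, again near that background. Genes listed as electron carriers lay below control for 3 of 4 in F2 and 2 of 4 in F3. Among them Cyc1 was at −0.09 in F2 and −0.14 in F3. It encodes cytochrome c1, a part of complex III that the symbol rule for members does not take in. Mitochondrial carriers lay below for 3 of 3 and 2 of 3, and regulators for 4 of 10 in F2 and 7 of 10 in F3. None of these genes passed the test, with adjusted p of at least 0.9998 by limma.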
